A study of Homo sapiens with 15 samples.

Results

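The genes described here are 10 members of the solute carrier family SLC35 whose proteins sit in the membranes of the endoplasmic reticulum (ER) and Golgi apparatus: SLC35A1, SLC35A2, SLC35A3, SLC35B1, SLC35B2, SLC35B4, SLC35C1, SLC35D1, SLC35D2 and SLC35E1. They were picked out by symbol from the 59608 genes of the table. All 10 averaged 10 or more normalized counts and so were among the 13561 genes tested. RNA came from MDA-MB-231, a line derived from a triple-negative human breast cancer and grown as a flat layer in dishes. Dishes received 0.1% DMSO as the vehicle control or the superstolide analog ZJ-101 at 0.5, 5, 50 or 500 nM for 6 h, with 3 libraries per group and 15 in all. The comparison asks how the RNA level of each transporter changed with dose.

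Sugars are activated in the cytosol or nucleus as nucleotide sugars, while most glycosyltransferases work inside the ER and Golgi. SLC35 proteins bridge that gap by carrying a nucleotide sugar inward, typically in exchange for the nucleoside monophosphate that remains after the sugar has been transferred. Loss of single transporters is known to cause congenital disorders of glycosylation. The label of nucleotide-sugar transporter does not cover every member: SLC35B1 is known as an exchanger of ATP and ADP of the ER, SLC35B2 carries the sulfate donor PAPS, and SLC35E1 has no settled substrate.

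Values are normalized counts, which are read counts divided by a size factor that evens out sequencing depth. Between 12415519 and 15284762 reads per library fell on genes (median 13320354), of which 0.889% to 2.06% were mitochondrial. Replicates were separate dishes, and no pair of replicates was as close as sampling noise alone would make it (chi-square per degree of freedom 1.96 to 15.1). Markers of the line were present in DMSO, with vimentin (VIM) at 14000 to 14600 and CD44 at 11980 to 12290, and the estrogen receptor gene ESR1 was at 0. The epithelial keratin KRT8 was also high, at 11680 to 12390. At 500 nM 3 of the 8 markers of the line rose and 2 fell, CD44 among them, and 1 of the 7 epithelial or luminal markers tested, CDH1, fell. Beside these, 7.69% of all genes tested rose and 10.1% fell at that dose. Over 7 markers of leukocytes, endothelium and fibroblasts the summed level was 532 to 578 in DMSO and 456 to 494 at 500 nM, most of it PECAM1 and COL1A1. The T cell gene CD3E was at 0 in every library. Of these 7 markers 4 were tested, and CD14 alone passed at 500 nM, where it fell by 1.39 on the log2 scale (adjusted p = 0.0022, limma), and the part of such cells in the results below was not tested.

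The promoters of 3 members are shown because stress pathways of the ER and Golgi act through short promoter motifs. Each is a window of RefSeq on GRCh38.p14 that runs from 250 bases before an annotated start to 50 after it. The SLC35A2 window is chrX:48911909-48912208 on the minus strand, and SLC35A2 is the member that passed a test below. The SLC35B2 window is chr6:44257239-44257538 on the minus strand, and that of SLC35C1 is chr11:45804899-45805198 on the plus strand. Capitals mark the reverse strand of ACGTGGC, the Golgi stress response motif, which starts 67 bases before the start in SLC35B2 and 56 before it in SLC35C1.
SLC35A2: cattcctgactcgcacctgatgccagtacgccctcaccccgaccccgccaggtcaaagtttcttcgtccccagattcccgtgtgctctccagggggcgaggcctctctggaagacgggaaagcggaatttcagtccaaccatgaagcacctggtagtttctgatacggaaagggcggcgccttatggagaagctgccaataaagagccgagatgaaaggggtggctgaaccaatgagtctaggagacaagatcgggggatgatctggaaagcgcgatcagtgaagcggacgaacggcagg
SLC35B2: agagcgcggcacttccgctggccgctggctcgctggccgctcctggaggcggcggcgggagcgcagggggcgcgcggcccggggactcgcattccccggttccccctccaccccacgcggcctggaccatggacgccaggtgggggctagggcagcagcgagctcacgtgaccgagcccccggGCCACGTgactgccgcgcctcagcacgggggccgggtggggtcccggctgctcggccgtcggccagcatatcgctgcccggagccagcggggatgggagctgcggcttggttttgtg
SLC35C1: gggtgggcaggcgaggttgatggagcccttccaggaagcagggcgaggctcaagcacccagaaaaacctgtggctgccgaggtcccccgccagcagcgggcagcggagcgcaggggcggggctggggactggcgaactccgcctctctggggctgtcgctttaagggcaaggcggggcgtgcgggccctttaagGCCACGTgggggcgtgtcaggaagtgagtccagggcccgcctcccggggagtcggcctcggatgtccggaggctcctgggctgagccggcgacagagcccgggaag
The 10 members had 16 such windows. ACGTGGC was found, on either strand, in 1 of the 3 windows of SLC35B2 and 1 of the 3 of SLC35C1, and in 3.22% of the 35116 windows of all genes. The other motifs searched on both strands were the ER stress element (CCAAT, 9 bases of any kind, then CCACG, in 0.0769% of all windows), the unfolded protein response motif TGACGTGG (0.729%, sharing ACGTGG with the Golgi motif) and the heat shock core GAANNTTC (6.77%). None of these 3 motifs occurs in the member windows. Both windows with the Golgi motif belong to a start inside the gene rather than its outermost one. Neither SLC35B2 nor SLC35C1 passed the test against DMSO at any dose, and the part of the motif in their levels was not tested.

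The members differed widely in their level in DMSO, by the reads per kilobase (kb) of all exons. SLC35B2, the PAPS transporter, had the highest value at 865 ± 28.8 normalized counts per kb (SD, n = 3). SLC35A2, which supplies UDP-galactose to the Golgi, followed at 281 ± 6.39, and SLC35E1 at 179 ± 8.31. A middle set held SLC35B1 at 126 ± 2.26, the GDP-fucose transporter SLC35C1 at 97.4 ± 5.28, SLC35B4 at 89.8 ± 2.43 and SLC35D1 at 73.6 ± 5.81.
SLC35A1, the CMP-sialic acid transporter, stood at 45.4 ± 3.64 per kb, and the UDP-GlcNAc carriers SLC35A3 and SLC35D2 came last at 25.4 ± 1.96 and 23.4 ± 3.07. In this order only SLC35A3 and SLC35D2 had libraries that overlapped those of their neighbour. Per kb of the longest transcript, SLC35B1 (299) ranked above SLC35E1 (255) and SLC35D2 (33.5) above SLC35A3 (32.3). SLC35A1 shares 55.5% of its exon bases with the same-strand gene ENSG00000213204 and SLC35D2 46.9% with ENSG00000285269, a near-identical gene model, so how their reads were assigned is uncertain.

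**Figure D1:**
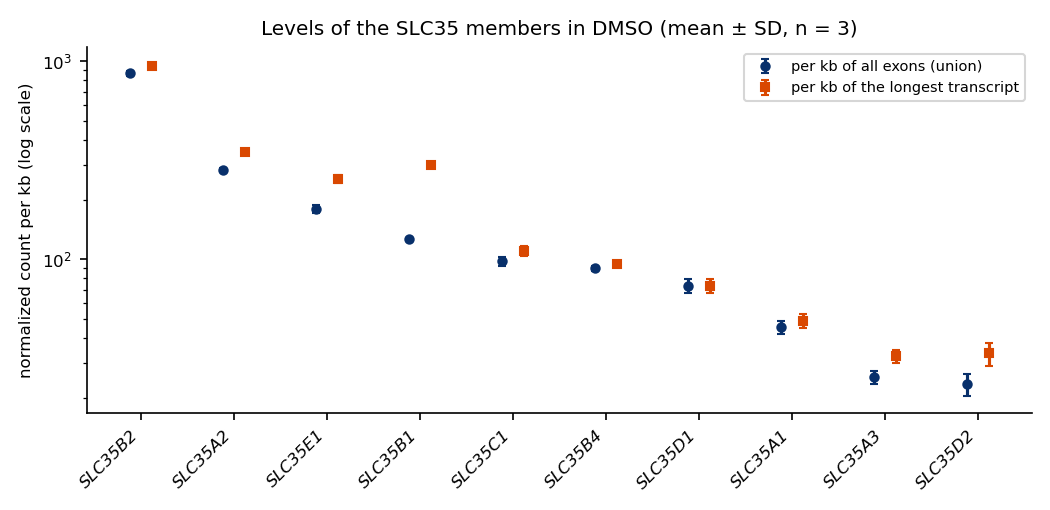
Level of each member in DMSO, in normalized counts per kb on a log axis. Circles divide by the length of all exons and squares by the longest transcript, with bars for the SD over 3 libraries. SLC35B2 is highest on both scales, and SLC35A3 and SLC35D2 are lowest.

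No member passed the test against DMSO at any dose. Differences were tested with limma on log2(normalized count + 1), using Benjamini-Hochberg adjusted p over all genes tested and a threshold of 0.05. The counts were 0 of 10 at 0.5 nM, where 1.17% of all genes tested passed, 0 at 5 nM (2.18% of genes), 0 at 50 nM (6.00%) and 0 at 500 nM (17.8%, of which 7.69% of genes up and 10.1% down). edgeR and DESeq2 on the recovered reads also called 0 members at each dose. SLC35A2, at an adjusted p of 0.051 at 500 nM (limma), passed there in 8 of 26 alternatives, which are given in the closing section. At an unadjusted limma p under 0.05 there were 1, 0, 1 and 2 members in the order of dose. By that measure 1997, 1749, 2362 and 3980 of the 13561 genes tested passed, which is a larger share at every dose.

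The fold changes were small. Their median over the 10 members was -0.09, -0.05, 0.03 and 0.02 on the log2 scale from 0.5 to 500 nM, and the largest in either direction was 0.22, 0.11, 0.31 and 0.16. At 0.5 nM the median absolute change was 0.09 over the members and also over all genes tested. There 9 of the 10 members had negative values, as had 7108 of the 13561 genes. From 5 to 50 nM 9 members had positive values, as had 6761 genes, with a median of 0.09 over the members and -0.0007 over all genes. These shared directions were not tested. At 500 nM the median absolute change was 0.05 over the members and 0.12 over all genes tested. At that dose the confidence intervals (95%) of the members lay within -0.41 to 0.31, and the widest were those of the 2 genes with the fewest reads, SLC35A1 and SLC35D2. All 4 dose comparisons share the same 3 DMSO libraries. In these bulk samples, fewer cells with a transcript and less of it per cell cannot be told apart.

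**Figure D2:**
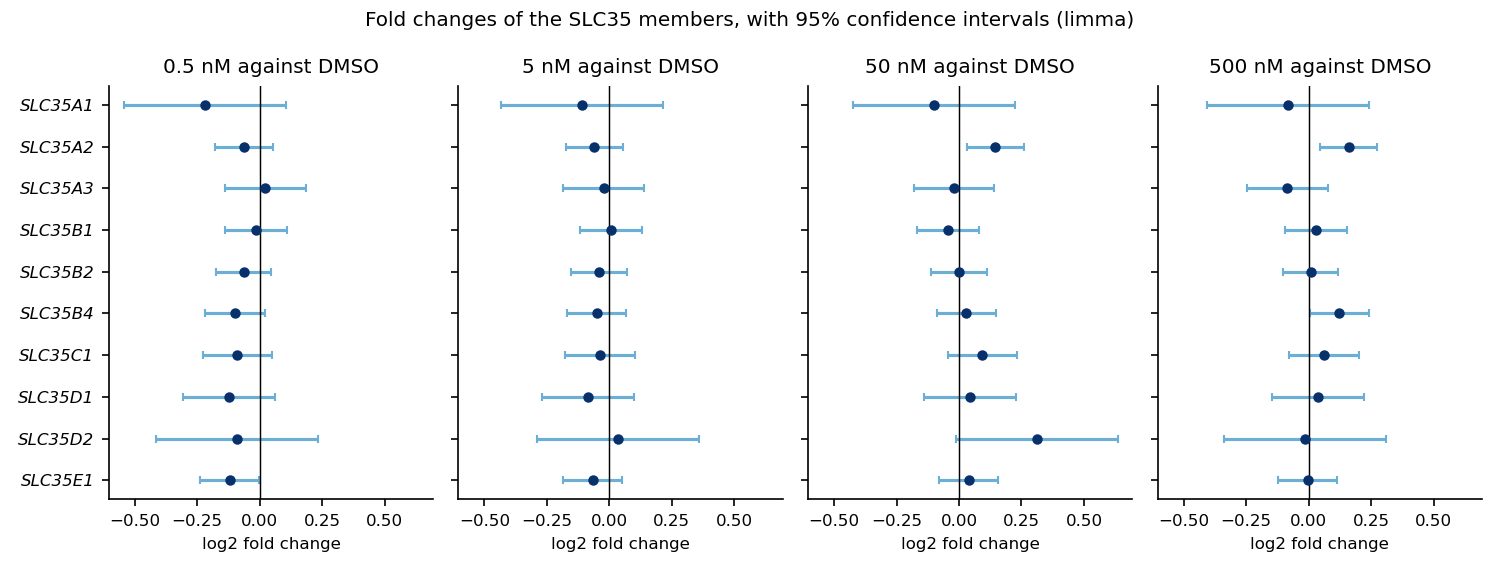
Log2 fold change of each member against DMSO at 0.5, 5, 50 and 500 nM ZJ-101, with 95% confidence intervals from limma. The intervals of SLC35A2 at 50 and 500 nM and of SLC35B4 at 500 nM lie above 0, and that of SLC35E1 at 0.5 nM lies below 0. None of these passed the adjusted threshold. SLC35A1 and SLC35D2 have the widest intervals.

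SLC35A2 (ENSG00000102100.16, chrX:48903180-48911958, minus strand, GRCh38) was the only member that passed in a comparison across doses. The DMSO libraries had 1055, 1075 and 1028 normalized counts. At 0.5 nM the values were 941.5, 1107 and 982.3, and at 5 nM 1026, 998.3 and 1004. At 50 nM they were 1183, 1193 and 1118, and at 500 nM 1148, 1173 and 1208.
The 6 libraries of the higher pair of doses all lay above every DMSO library, the 5 nM libraries lay just below the DMSO range, and those of 0.5 nM overlapped it. The difference from DMSO was 0.15 at 50 nM (interval 0.03 to 0.26, adjusted p = 0.147, limma) and 0.16 at 500 nM (interval 0.04 to 0.27, adjusted p = 0.051), on the log2 scale.

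Along the dose series SLC35A2 rose, though not at each step. Its slope across the ranked doses was 0.05 per rank on the log2 scale (SE 0.02, adjusted p = 0.0208, limma), and SLC35A2 was the 1 member of 10 that passed, where 17.6% of all genes tested passed and 8.23% did so upward. From 5 to 50 nM it rose by 0.21 (interval 0.09 to 0.32, adjusted p = 0.0352), again the 1 member that passed, where 5.01% of all genes passed and 2.62% upward. From 0.5 to 5 nM 0 members passed (0.118% of all genes) and from 50 to 500 nM also 0 (2.28%). SLC35A2 itself differed by 0.01 between 50 and 500 nM (interval -0.10 to 0.13).
These calls were close to the threshold. The slope lost its call without replicate 2 or without replicate 3 of 500 nM (adjusted p up to 0.0692). The step lost it without DMSO replicate 1, any single 5 nM library, or replicate 1 or 2 of 50 nM (adjusted p up to 0.124). The 50 nM libraries were also the shallowest, with 12415519 to 12623863 reads against 13225890 to 15284762 at 5 nM, and the part of depth in the step was not tested. SLC35A2 shares 5.95% of its exon bases with the antisense gene PQBP1, which stood at 0.04 at 500 nM (adjusted p = 0.644) and at -0.005 from 5 to 50 nM (adjusted p = 0.979).

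**Figure D3:**
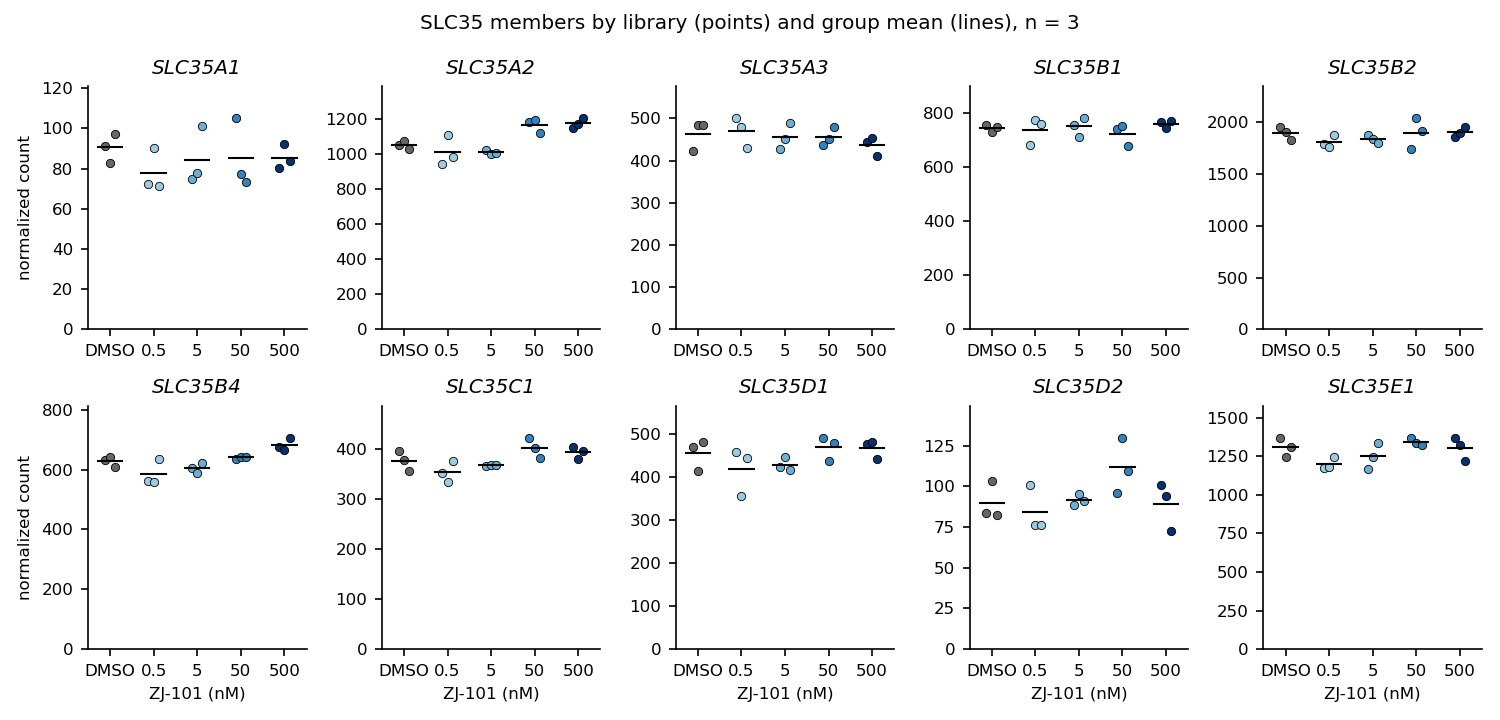
Normalized counts of the 10 members in each of the 15 libraries, from DMSO to 500 nM ZJ-101, each panel starting at 0. Points are libraries and lines are group means (n = 3). SLC35A2 sits at 1118 to 1208 at 50 and 500 nM against 1028 to 1075 in DMSO, and most other panels are flat within the spread of their replicates.

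SLC35B4, which carries UDP-xylose and UDP-GlcNAc, had the next smallest p at 500 nM. Its normalized counts were 633.3, 641.4 and 608.7 in DMSO, 563.5, 559.7 and 637.3 at 0.5 nM, and 604.6, 590.1 and 623.2 at 5 nM. They were 636.1, 644 and 642.4 at 50 nM and 676.7, 666.5 and 707.4 at 500 nM. The 500 nM libraries lay above all others of this gene, and those of the lower doses overlapped DMSO.
The difference at 500 nM was 0.12 on the log2 scale (interval 0.004 to 0.24, adjusted p = 0.156, limma). Its slope on the dose rank was 0.04 (adjusted p = 0.0893), and it passed the threshold when the slope was fitted to the 12 treated libraries only (0.07 per rank, adjusted p = 0.00839). That fit leaves out DMSO and starts from 0.5 nM, the group with the lowest mean of this gene (586.8, against 627.8 in DMSO). The share of all genes that passed in it was not counted.

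By another count, that of genes whose treated libraries were all above or all below the DMSO ones, the members gave 0 of 10 at 0.5 nM (18.1% of all genes tested), 1 at 5 nM (23.2%), 1 at 50 nM (24.8%) and 2 at 500 nM (38.5%). The member was SLC35A2 at 5 nM, where it was lower, and at 50 nM, where it was higher, and the pair at 500 nM was SLC35A2 and SLC35B4, both higher. Between 5 and 50 nM 4 members did not overlap, namely SLC35A2, SLC35B4, SLC35C1 and SLC35D2, all higher at 50 nM (23.7% of all genes in either direction). Between 50 and 500 nM only SLC35B4 did not overlap (20.2%). None of these shares but that of the step from 5 to 50 nM exceeded the share of all genes.

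Among the carriers of UDP-GlcNAc and related donors, the values ran in no common direction. SLC35A3 had 421.9, 483.6 and 483.9 normalized counts in DMSO and 444.4, 454.1 and 409.8 at 500 nM, which overlapped, and differed by -0.09 on the log2 scale (interval -0.25 to 0.08, adjusted p = 0.517). SLC35D1, the ER transporter of UDP-glucuronic acid and UDP-GalNAc, had 469, 414.8 and 482.9 in DMSO and 478, 482.4 and 441.6 at 500 nM, a difference of 0.04 (interval -0.15 to 0.22, adjusted p = 0.827). SLC35D2 stood out for its spread.
Its counts were 83.6, 103.2 and 82.18 in DMSO, 95.63, 129.9 and 109.6 at 50 nM and 100.9, 94.06 and 72.42 at 500 nM, and both doses overlapped DMSO. The difference was 0.31 at 50 nM (interval -0.01 to 0.63, adjusted p = 0.315) and -0.01 at 500 nM (adjusted p = 0.965). Between 50 and 500 nM it was -0.33 (unadjusted p = 0.0494, adjusted p = 0.38, limma). The coefficient of variation within groups was 14.1% for SLC35D2 and 14.2% for SLC35A1, against 4.01% to 7.96% for the other 8 members.

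The transporters of sialic acid and fucose, the sugars that cap many glycans, overlapped DMSO at every dose. SLC35A1 had 91.29, 82.95 and 97.4 normalized counts in DMSO and 80.51, 92.04 and 83.9 at 500 nM, a difference of -0.08 on the log2 scale (interval -0.41 to 0.24, adjusted p = 0.787). SLC35C1 had 396.9, 379.4 and 356.1 in DMSO and 404.6, 381.3 and 395.7 at 500 nM, a difference of 0.06 (interval -0.08 to 0.20, adjusted p = 0.592). At 50 nM SLC35C1 had 423.4, 402.8 and 381.8, all above its 5 nM libraries of 366.6, 368.1 and 367.8 (0.13, adjusted p = 0.322).

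The 3 members that carry no nucleotide sugar, or none that is settled, overlapped DMSO throughout as well. SLC35B2 had 1955, 1906 and 1829 normalized counts in DMSO and 1861, 1901 and 1957 at 500 nM, a difference of 0.01 on the log2 scale (interval -0.10 to 0.12, adjusted p = 0.945). SLC35B1 had 755.3, 729.4 and 747.7 in DMSO and 766.4, 743.4 and 768.4 at 500 nM (0.03, interval -0.09 to 0.15, adjusted p = 0.803). SLC35E1 had 1367, 1246 and 1309 in DMSO and 1371, 1321 and 1221 at 500 nM (-0.004, interval -0.12 to 0.11, adjusted p = 0.973).
The lowest group of SLC35E1 by its mean was 0.5 nM, with 1176, 1182 and 1247, a difference of -0.12 from DMSO (unadjusted p = 0.0457, adjusted p = 0.329, limma).

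The enzymes that make the donors form the step before transport. Of 30 synthesis enzymes, all tested, 0 rose and 6 fell at 500 nM, with a median over the list of -0.08 on the log2 scale beside 0.003 over all genes tested. Of all genes tested, 7.69% rose and 10.1% fell at that dose. GFPT1, the rate-limiting enzyme of the hexosamine route to UDP-GlcNAc, had 1266, 1303 and 1320 normalized counts in DMSO and 1003, 920.4 and 959.1 at 500 nM. It fell by 0.43 (SE 0.05, adjusted p = 7.93e-06, limma), and by 0.33 already at 50 nM (adjusted p = 0.000378).
In the route to UDP-glucose and UDP-galactose, PGM1, which forms glucose 1-phosphate, fell by 0.22 (adjusted p = 0.00107) and UGP2, which forms UDP-glucose, by 0.20 (adjusted p = 0.0198). UGDH, which oxidizes UDP-glucose to UDP-glucuronic acid, fell by 0.23 (adjusted p = 0.00122). GMPPA, the regulatory partner of the enzyme that makes GDP-mannose, fell by 0.29 (adjusted p = 0.00689), and UAP1L1, a relative of the UDP-GlcNAc pyrophosphorylase UAP1, by 0.26 (adjusted p = 0.013). UAP1L1 lost its call when replicate 1 of either DMSO or 500 nM was left out (adjusted p up to 0.0873, limma). UGP2 lost it when replicate 3 of either group or replicate 2 of DMSO was left out (adjusted p up to 0.0907).

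Set beside each member, UDP-galactose was the donor whose carrier passed by the slope on dose rank, while PGM1 and UGP2 of its synthesis fell at 500 nM. GALT stood at 0.01 and GALK1 at -0.06 at 500 nM. SLC35B4, which carries UDP-xylose and UDP-GlcNAc, also had an upward slope, which did not pass (0.04, adjusted p = 0.0893, limma). GFPT1 and UGDH of the routes to its donors fell at 500 nM. For UDP-GlcNAc and UDP-GalNAc the enzymes that did not pass stood at -0.09 (GFPT2), 0.09 (GNPNAT1), -0.18 (PGM3), 0.13 (UAP1), 0.03 (NAGK) and -0.15 (GALK2). In the CMP-sialic acid route 0 of 4 enzymes passed at 500 nM, with GNE at -0.09, NANS at 0.004, NANP at 0.14 and CMAS at 0.08.
GNE, which commits UDP-GlcNAc to sialic acid synthesis, passed at the lowest doses instead. It fell by 0.21 at 0.5 nM (adjusted p = 0.0258, limma) and by 0.20 at 5 nM (adjusted p = 0.0185). Its libraries at 50 nM (1857 to 1961) and 500 nM (1906 to 1991) still lay below those of DMSO (2033 to 2130). For GDP-mannose, from which GDP-fucose is made, MPI stood at -0.09, PMM1 at -0.01, PMM2 at -0.08 and GMPPB at 0.06. For GDP-fucose, GMDS stood at -0.19, FCSK at 0.12 and FPGT at -0.14. The row of GFUS, listed as TSTA3, ranged from 7.52 to 99.8 normalized counts without relation to dose. TSTA3 has 1 copy on an alternate contig, so how its reads were assigned is uncertain. UXS1, which makes UDP-xylose, stood at -0.03, and the PAPS synthases PAPSS1 and PAPSS2 at -0.10 and -0.06.

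**Figure D4:**
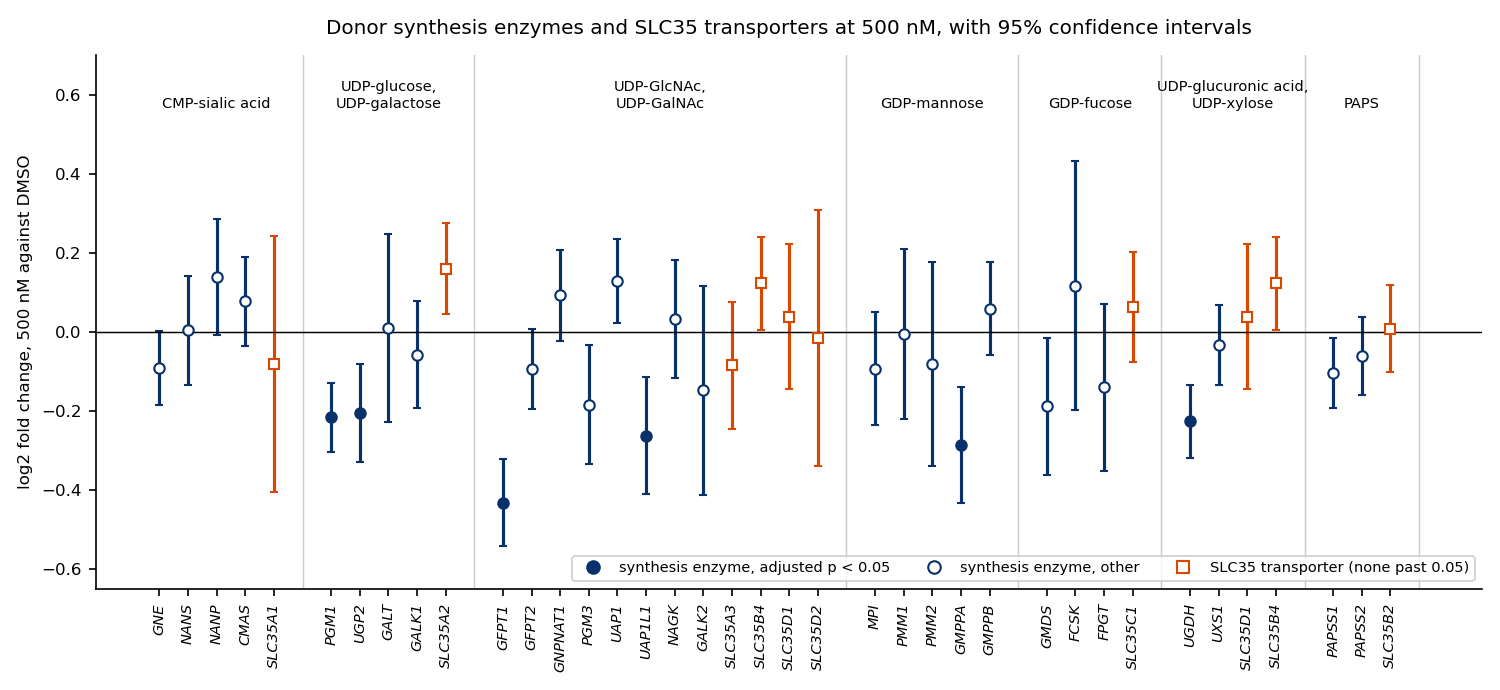
Log2 fold change at 500 nM against DMSO for the synthesis enzymes (circles) and the SLC35 members that carry the product (squares), by donor, with 95% confidence intervals. Filled symbols passed the adjusted threshold. All 6 filled symbols are enzymes below 0, GFPT1 lowest at -0.43, and TSTA3, SLC35B1, SLC35E1 and 1 further listed gene are not drawn.

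Inside the ER and Golgi, phosphatases turn the spent nucleotides into the form that the carriers exchange. Of 5 tested, 0 rose and 2 fell at 500 nM, and both also fell at 50 nM. Of all genes tested, 10.1% fell at 500 nM, and 503 of 13561 fell at 50 nM. BPNT2, which clears the nucleotide left after PAPS has given up its sulfate, had 1763, 1891 and 1877 normalized counts in DMSO and 1457, 1415 and 1285 at 500 nM, and fell by 0.41 on the log2 scale (SE 0.06, adjusted p = 2.29e-05, limma). ENTPD6 fell by 0.17 (adjusted p = 0.0147) and lost its call when replicate 2 or 3 of DMSO, or replicate 1 of 500 nM, was left out (adjusted p up to 0.0871). CANT1 stood at -0.12, ENTPD4 at 0.17 and ENTPD5 at -0.0003.

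Elsewhere in the SLC35 family, 14 of 21 further genes were tested, and 3 rose and 0 fell at 500 nM, beside 7.69% and 10.1% of all genes tested. SLC35F6 had 560.2, 521 and 492.1 normalized counts in DMSO and 644.1, 673.6 and 699.5 at 500 nM, and rose by 0.36 on the log2 scale (adjusted p = 0.000496, limma). SLC35E3 rose by 0.36 (adjusted p = 0.000906) and SLC35F2 by 0.22 (adjusted p = 0.00304). SLC35F6 also rose at 50 nM, by 0.30 (adjusted p = 0.00622).
All 14 had positive values at 500 nM, as had 6864 of the 13561 genes tested. Their median was 0.15, beside 0.02 over the 10 members and 0.003 over all genes tested, and the difference between the lists was not tested. SLC35E2A, 1 of the 14, is annotated as a transcribed pseudogene. It is near-identical to SLC35E2B, so reads of that pair may be split between them.

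Over the 15 libraries the genes whose log2 values ran most like those of SLC35A2 were PMP22 (Pearson r = 0.964), DDRGK1 (0.962) and DNAJB4 (0.948). For SLC35B4 they were ELOVL6 (0.913), AREL1 (0.912) and CERS2 (0.899). These values were picked as the highest among all genes tested, and the libraries share their dose groups, so they describe the likeness and carry no test.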

How the data were processed

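Paired reads from poly-A selected libraries were placed on hg38 by the authors with HISAT2. Their htseq-count totals per gene were then divided by DESeq2 size factors. Tool versions and the strand setting are not given in the sources used here. The deposited signal values are these normalized counts for 59608 genes, and 1 line without a gene was left out. Dividing by each library's smallest step gave whole reads within 0.001 for 100% of values.

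limma 3.58.1 (R 4.3.3) was fitted to log2(normalized count + 1) for 13561 genes averaging 10 or more, with a variance trend, 5 groups in 1 fit and 10 residual degrees of freedom. The slope used the dose rank from 0 to 4 in a fit of its own. Fold changes of low genes are understated on this scale. edgeR 4.0.16 and DESeq2 1.42.0 on recovered reads, other scalings, filters and pseudocounts, and omission of each library were alternatives. The test was checked on simulated data. Positions and exons are from GENCODE 44 on GRCh38, and copies were searched with minimap2 on 261 alternate contigs. Lengths and GC content were found for 93.16% of genes tested.

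The members and gene lists were chosen with earlier results of these data known. Genes named beyond the members were those past the threshold at 500 nM in each list, the synthesis enzymes of each carried donor, and the 3 genes most like each of the 2 members with the smallest p at 500 nM. GNE at low doses, CD14, PQBP1 and the other markers were named after their values were seen. 1 listed gene is not reported here.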

Additional observations from a re-analysis of the deposited data

How the results depend on the processing

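With 3 libraries per group, the intervals of most members included 0, so changes of the size seen in them could not be told from 0. 0 members passed at 0.5 and 5 nM under every alternative run. At 50 nM the count over fits that leave out 1 library was 0 to 1, and SLC35A2 passed without replicate 2 of 0.5 nM (adjusted p = 0.0347, limma). At 500 nM the count was 1, SLC35A2, with a mean of at least 50, the same total per library, the 6 libraries alone, the length and GC trend removed or an adjusted p under 0.1, and 0 to 1 when 1 library was left out, with calls without replicate 1, 2 or 3 of 0.5 nM. Its adjusted p ranged from 0.00877 to 0.163, and its fold change from 0.14 to 0.18. By the slope the count was 2, SLC35A2 and SLC35B4, in the 12 treated libraries or at an adjusted p under 0.1, and 0 to 1 when 1 library was left out. From 5 to 50 nM it was 0 with no filter on low genes and 0 to 1 when 1 library was left out. Phosphatases that fell at 500 nM were 1 to 2 when 1 library was left out. The cause of these changes was not tested.

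With the replicate number as a block, 1 member (SLC35A2) passed at 500 nM in place of 0, and no other count of members changed. Libraries of 1 number did not deviate together (correlation -0.0855 to 0.0961 over 30 pairs), and 7 of 15 were most like their own number. Of 2366 single-gene alternatives, 74 changed sign while uncalled on both sides, and 0 called values changed sign. Under every scaling run, the median log2 fold change of all genes against DMSO lay between -0.0107 and 0.00575.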
